A study of Mus musculus with 12 samples.

Results

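Trichohyalin, the peptidylarginine deiminases and the transglutaminases of skin were examined in regrowing mouse skin with and without Sox4. The 10 genes were Tchh, Tchhl1, Padi1, Padi2, Padi3, Padi4, Tgm1, Tgm2, Tgm3 and Tgm5. They were read by the 14 array probes annotated with a RefSeq transcript of these genes, out of 55681 probes, and they made up 10 of the 16191 genes tested. Padi2, Padi4, Tgm2 and Tgm3 each had 2 probes, and the other 6 genes had 1. All 14 probes were well above background on all 12 arrays and none was saturated, so no member was lost to the filter on dim probes. The 12 arrays each measured total RNA from the plucked skin of 1 male mouse on a mixed C57Bl6/129Sv background, taken 12 days after plucking. Mice lacking Sox4 conditionally in skin (cKO) were compared with wild type mice (WT) in 2 experiments of different age. In Exp 1 the 3 cKO mice were 68 to 72 weeks old and the 3 WT mice 69 to 72 weeks old. In Exp 2 the 3 cKO mice were 16 to 18 weeks old and the 3 WT mice 18 to 20 weeks old. Age and experiment cannot be told apart. The labels do not name the promoter or Cre line that drives the deletion, and nothing states whether the mice of a group were littermates.

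Trichohyalin is a long, arginine-rich protein that fills granules in the inner root sheath and the medulla of the growing hair. Peptidylarginine deiminases turn its arginines into citrullines, which unfolds the protein, and transglutaminases then join it to itself and to keratin filaments through glutamine and lysine side chains, so that the sheath and medulla harden. In the epidermis the same kinds of enzyme act on filaggrin, loricrin, involucrin and small proline-rich proteins while the cornified envelope is built.

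RefSeq promoters of GRCm38.p6, from 250 bases before to 50 bases after a transcription start, were found for 9 of the 10 genes. Those of Tchh, Padi4, Tgm3 and Tgm5 are shown here as examples. Tchh, Padi4 and Tgm3 shared a low value in 1 mouse, in which Tgm5 was high. Tchhl1, Padi1 and Padi3 were low in that mouse too, and their promoters are not shown. Capitals mark matches on either strand. The letters searched for a TATA box were TATAAA. Those for an AP-1 site, bound by Fos and Jun proteins, were TGANTCA. The letters of a GATA factor site were GATAA. Those of a SOX factor site, the family that Sox4 belongs to, were ACAAAG. No matches of different motifs overlapped.
Tchh, chr3:93442080-93442379, plus strand: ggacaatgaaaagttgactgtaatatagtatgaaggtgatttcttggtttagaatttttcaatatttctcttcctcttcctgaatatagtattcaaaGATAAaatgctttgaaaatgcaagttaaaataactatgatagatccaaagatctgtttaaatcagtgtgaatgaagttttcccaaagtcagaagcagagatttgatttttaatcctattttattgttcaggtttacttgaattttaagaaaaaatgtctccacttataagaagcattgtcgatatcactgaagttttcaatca
Padi4, chr4:140774154-140774453, minus strand: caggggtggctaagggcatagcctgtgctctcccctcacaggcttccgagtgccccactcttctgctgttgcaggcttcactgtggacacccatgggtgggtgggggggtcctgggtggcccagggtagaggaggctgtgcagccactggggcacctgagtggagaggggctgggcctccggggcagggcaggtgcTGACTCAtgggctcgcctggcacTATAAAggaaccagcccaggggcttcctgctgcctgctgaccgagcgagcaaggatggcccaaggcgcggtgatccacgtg
Tgm3, chr2:130012090-130012389, plus strand: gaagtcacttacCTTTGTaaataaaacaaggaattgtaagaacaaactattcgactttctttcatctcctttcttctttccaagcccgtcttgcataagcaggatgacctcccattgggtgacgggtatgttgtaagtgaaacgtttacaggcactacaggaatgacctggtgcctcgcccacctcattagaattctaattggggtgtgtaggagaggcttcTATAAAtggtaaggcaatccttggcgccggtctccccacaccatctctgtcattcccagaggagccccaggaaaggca
Tgm5, chr2:121085792-121086091, minus strand: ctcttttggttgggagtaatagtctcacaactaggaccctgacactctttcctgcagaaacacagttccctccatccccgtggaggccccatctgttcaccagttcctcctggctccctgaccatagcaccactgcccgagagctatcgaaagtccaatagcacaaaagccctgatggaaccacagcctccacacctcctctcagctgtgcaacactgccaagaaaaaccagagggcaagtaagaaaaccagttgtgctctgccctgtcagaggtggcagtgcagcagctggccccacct
The Tchh promoter had a GC content of 28.7% and held a GATA match at position -153 from the start site. The Padi4 promoter had a GC content of 66.3% and held a TATA match at -31 and an AP-1 match at -54. The Tgm3 promoter held a TATA match at -28 and, on the reverse strand, a SOX match at -238. The Tgm5 promoter held none of these letters in the 300 bases shown. Of the other 5 members with a promoter, only Tchhl1 had matches, 1 AP-1 and 1 GATA. No promoter sequence was at hand for Tgm2. Among 32851 promoters of the same length, 13.6% held the TATA letters, 7.81% the AP-1 letters, 25.4% the GATA letters and 18.7% the SOX letters, so these matches describe the sequences and do not mark binding sites.

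Levels are given as the log2 processed signal minus the 75th percentile of that array, and a difference of 1 is a 2-fold change. Levels of different probes are not set against each other. Sox4 itself averaged -4.00 ± 0.22 in cKO and 2.02 ± 0.15 in WT skin of Exp 1, and -2.81 ± 0.25 in cKO and 2.25 ± 0.16 in WT skin of Exp 2 (SD, n = 3 each). The averaged Sox4 difference was -5.54 ± 0.12 (SE), with an adjusted p of 3.8e-09. Between 53.9% and 62.6% of the probes were well above background on an array. cKO mouse 5 of Exp 1 had the lowest share of probes above background, and it stood apart from cKO mice 2 and 6 in many of the genes below. The main differences are therefore given with and without it. The arrays came from 3 slides that each mixed genotypes and experiments, apart from a slide that held cKO mouse 3 alone.

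No member passed the test between genotypes. With all 12 mice, 0 of the 10 genes passed an adjusted p of 0.05 in cKO against WT averaged over both experiments, where 0.42% of all genes passed. The count was also 0 within Exp 1 (0.117% of all genes), within Exp 2 (0.0618%) and for the difference between the 2 experiments' genotype effects (0.00618%). A count of 0 of 10 does not stand apart from these shares. The adjusted p-values of the members lay between 0.29 and 1 in these 4 comparisons. At an unadjusted p under 0.05 in limma, 1 member was counted in Exp 1 (11.3% of all genes were) and in the average (12.1% of all genes), Tgm5 both times, and 0 in Exp 2 and for the difference between experiments.

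**Figure D1:**
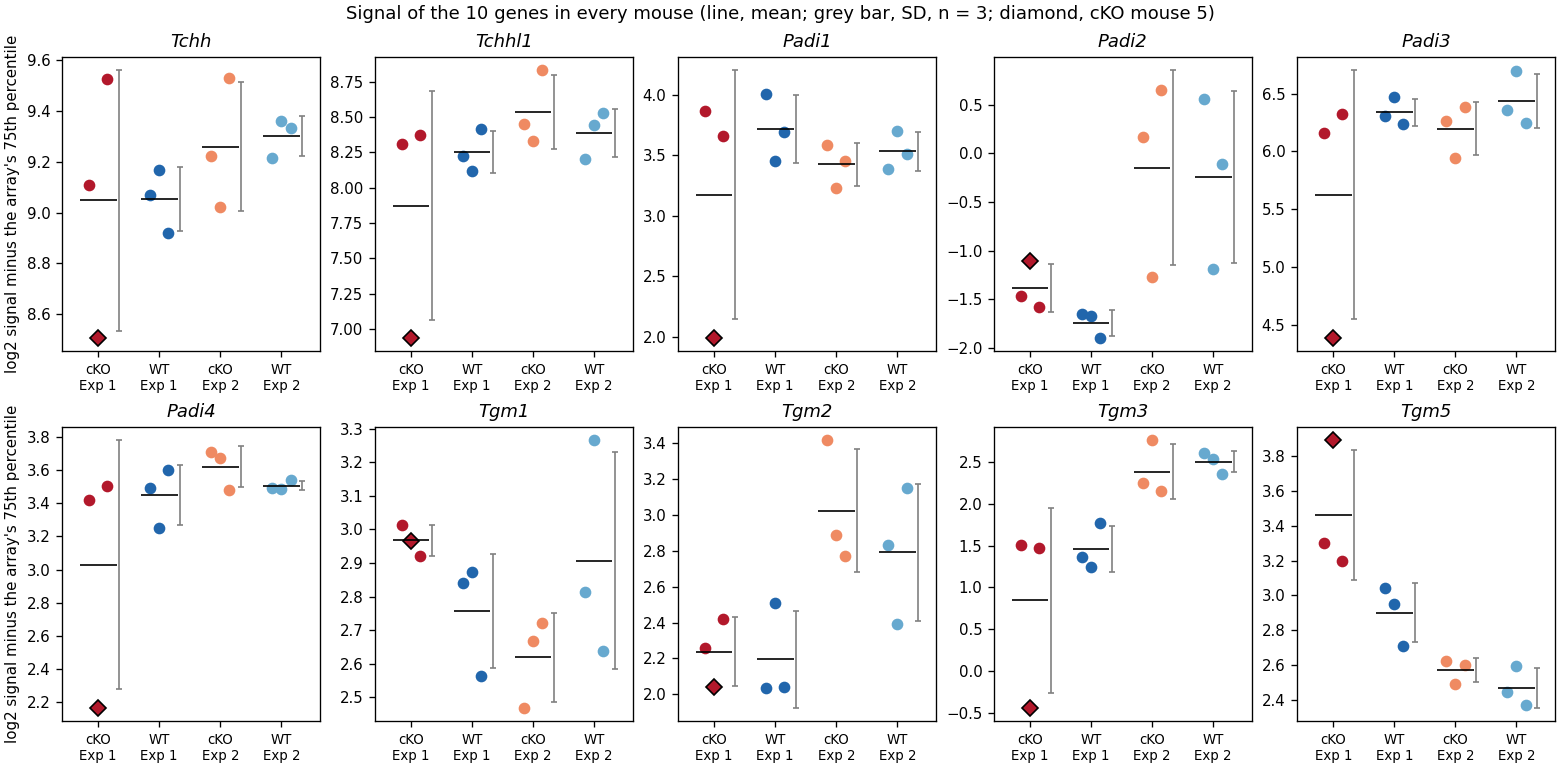
Log2 signal minus the array's 75th percentile (vertical axes, each on its own range) for the 10 genes in all 12 mice, by genotype and experiment; black lines are group means and grey bars the SD of 3 mice. cKO mouse 5, drawn as a diamond, is the lowest of the 12 mice in Tchh, Tchhl1, Padi1, Padi3, Padi4 and Tgm3 and the highest in Tgm5.

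Trichohyalin showed no genotype difference beyond the spread between mice. Tchh measured 9.11, 8.51 and 9.53 in cKO mice 2, 5 and 6 of Exp 1, against 9.07, 9.17 and 8.92 in WT mice 1, 2 and 3. In Exp 2 it measured 9.22, 9.02 and 9.53 in cKO mice 1, 3 and 4, against 9.21, 9.36 and 9.33 in WT mice 4, 5 and 6. The groups overlapped in both experiments, and cKO mouse 5 was the lowest of the 12. The genotype difference of Tchh was -0.01 in Exp 1 (95% interval -0.51 to 0.50) and -0.04 in Exp 2 (95% interval -0.55 to 0.46). Without cKO mouse 5 the Exp 1 difference was 0.26 (adjusted p = 0.74). Older minus younger, Tchh differed by -0.21 within cKO and by -0.25 within WT. The 3 older WT mice all lay below the 3 younger ones, yet the adjusted p was 0.61.

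Tchhl1, a trichohyalin-like gene that neighbours Tchh in the epidermal differentiation complex, had the same low mouse. It measured 8.31, 6.94 and 8.37 in cKO mice 2, 5 and 6, against 8.23, 8.12 and 8.41 in WT mice of Exp 1. The younger mice had 8.45, 8.33 and 8.83 in cKO and 8.20, 8.44 and 8.53 in WT. Apart from mouse 5, all values lay between 8.12 and 8.83. The Exp 1 difference of -0.38 ± 0.33 (SE, adjusted p = 0.68) was 0.09 without that mouse (adjusted p = 0.92).

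In Padi1, Padi3 and Padi4 no group differed from another beyond the spread between mice, and cKO mouse 5 stood below the other 11 mice. Padi3, the deiminase of the hair follicle whose substrates include trichohyalin, measured 6.16, 4.39 and 6.33 in cKO mice 2, 5 and 6, against 6.31, 6.47 and 6.24 in WT mice of Exp 1. In Exp 2 it measured 6.26, 5.94 and 6.38 in cKO and 6.36, 6.70 and 6.25 in WT. The genotype difference of -0.71 ± 0.41 in Exp 1 (SE, adjusted p = 0.54) was -0.09 without cKO mouse 5 (adjusted p = 0.91), and the difference in Exp 2 was -0.24 (95% interval -1.16 to 0.68).

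Padi1, a deiminase of the epidermis and follicle, measured 3.86, 1.99 and 3.66 in cKO mice 2, 5 and 6, against 4.01, 3.45 and 3.69 in WT mice of Exp 1. In Exp 2 its values were 3.59, 3.23 and 3.45 in cKO and 3.38, 3.70 and 3.51 in WT. With mouse 5 the Exp 1 difference was -0.54 ± 0.40 (SE, adjusted p = 0.62), and without it 0.05 (adjusted p = 0.96).

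Padi4, best known as the deiminase of granulocyte nuclei that acts on histones, measured 3.42, 2.16 and 3.50 in cKO mice 2, 5 and 6, against 3.49, 3.25 and 3.60 in WT mice of Exp 1. Younger skin gave 3.71, 3.68 and 3.48 in cKO and 3.49, 3.49 and 3.54 in WT. Its second probe had the same low mouse, with -1.07 in cKO mouse 5 against 0.64 and 0.48 in cKO mice 2 and 6. The Exp 1 difference of -0.42 ± 0.29 (SE, adjusted p = 0.60) was 0.01 without mouse 5 (adjusted p = 0.99). The mean log2 level of 7 neutrophil markers in cKO mouse 5 was 0.49 above that of cKO mice 2 and 6, while their sum on a linear scale was lower, at 113 in mouse 5 against 123 and 120.

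Padi2, the widely expressed deiminase that is abundant in muscle and brain, passed the test between experiments, given further on, and not the one between genotypes. It measured -1.47, -1.11 and -1.58 in cKO mice 2, 5 and 6, against -1.66, -1.67 and -1.90 in WT mice of Exp 1. The younger mice spread widely, at 0.17, -1.27 and 0.66 in cKO mice 1, 3 and 4 and 0.56, -1.19 and -0.11 in WT mice 4, 5 and 6. The 3 older cKO mice lay above the 3 older WT mice, but by 0.36 ± 0.50 (SE, adjusted p = 0.80), and the 2 genotypes overlapped in Exp 2. cKO mouse 3 and WT mouse 5 kept to the range of the older cKO mice.

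Of the 4 transglutaminases, 3 passed between experiments averaged over both genotypes, where 20.2% of all genes passed. That contrast, given further on, was added after the data were seen. None passed between genotypes, where 0.42% of all genes passed in the average. Tgm1, the membrane-bound enzyme of the epidermal cornified envelope, varied little. It measured 3.01, 2.97 and 2.92 in cKO and 2.84, 2.87 and 2.56 in WT mice of Exp 1, and 2.47, 2.67 and 2.72 in cKO and 2.81, 3.27 and 2.64 in WT mice of Exp 2. The genotype difference was 0.21 ± 0.16 in Exp 1, where the groups did not overlap, and -0.29 ± 0.16 in Exp 2 (SE). Neither passed (adjusted p = 0.65 and 0.98), and the difference between them, 0.50 with a 95% interval of -0.02 to 1.01, did not either (adjusted p = 1).

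Tgm2, the tissue transglutaminase found in endothelium, macrophages and many other cells, measured 2.26, 2.04 and 2.42 in cKO and 2.04, 2.51 and 2.04 in WT mice of Exp 1. In younger skin it measured 3.42, 2.89 and 2.77 in cKO and 2.83, 2.39 and 3.15 in WT. Within cKO the 3 older mice all lay below the 3 younger ones, and within WT the ages overlapped. The genotype differences were 0.04 in Exp 1 (95% interval -0.48 to 0.57) and 0.23 in Exp 2 (95% interval -0.29 to 0.75).

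Tgm3, the transglutaminase of the hair shaft, inner root sheath and upper epidermis, measured 1.51, -0.44 and 1.47 in cKO mice 2, 5 and 6, against 1.37, 1.24 and 1.77 in WT mice of Exp 1. Its values were higher in Exp 2, at 2.25, 2.76 and 2.15 in cKO and 2.61, 2.54 and 2.36 in WT. On this probe all 6 older mice lay below all 6 younger ones, with cKO mouse 5 far below the other 5 older mice. On the second probe the ages overlapped, since younger cKO mouse 1, at 1.43, lay below older WT mouse 1, and cKO mouse 5 was the lowest at 0.50. The genotype difference in Exp 1 was -0.62 ± 0.44 (SE, adjusted p = 0.61) with that mouse and 0.03 without it (adjusted p = 0.98), and on the second probe it was -0.11 with all mice (adjusted p = 0.95).

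Tgm5, an epidermal enzyme whose loss in people causes peeling of the outer skin, measured 3.30, 3.89 and 3.20 in cKO mice 2, 5 and 6, against 3.04, 2.95 and 2.71 in WT mice of Exp 1. Lower values were found in Exp 2, at 2.62, 2.49 and 2.60 in cKO and 2.44, 2.59 and 2.37 in WT. The older cKO mice all lay above the older WT mice, and all 6 older mice lay above all 6 younger ones. Its genotype difference in Exp 1, 0.56 ± 0.18 (SE), had the smallest adjusted p of all members, 0.29. Without cKO mouse 5 it was 0.35 (adjusted p = 0.49), and in Exp 2 it was 0.10 ± 0.18.

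**Figure D2:**
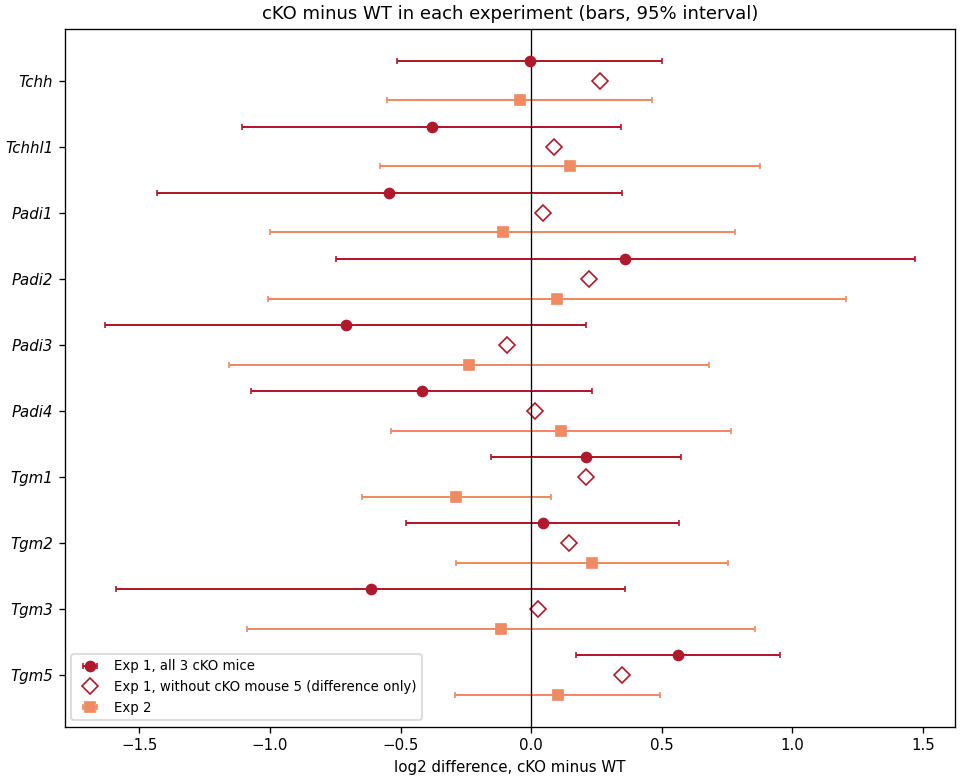
Log2 difference of cKO minus WT (horizontal axis) for each gene in Exp 1 with all 3 cKO mice, in Exp 1 without cKO mouse 5, and in Exp 2; bars are 95% intervals, not drawn for the smaller set. Leaving out cKO mouse 5 brings the Exp 1 difference of Tchhl1, Padi1, Padi3, Padi4 and Tgm3 to between -0.09 and 0.09.

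Between older and younger mice, Tgm5 rose and Padi2, Tgm2 and Tgm3 fell with both genotypes in 1 contrast. This averaged contrast was added after the data were seen. In it 4 of the 10 members passed, where 20.2% of all genes passed. Of the members, 1 was higher (10.7% of all genes were) and 3 were lower (9.46% of all genes were). Tgm5 was higher in older skin by 0.66 ± 0.12, or 1.58-fold (SE, adjusted p = 0.0069). Tgm3 fell by 1.29 on the log2 scale, with an SE of 0.31 (adjusted p = 0.017), and its second probe fell by 0.81 (adjusted p = 0.022). Tgm2 fell by 0.69, with an SE of 0.17 (adjusted p = 0.017), and its second probe fell by 0.75 (adjusted p = 0.0095). Padi2 fell by 1.37, with an SE of 0.35 (adjusted p = 0.023), and its second probe fell by 1.42 (adjusted p = 0.021). The Padi2 call was lost without WT mouse 3 (-1.33, adjusted p = 0.05) and without WT mouse 4 (-1.16, adjusted p = 0.054). All 4 calls were kept without cKO mouse 5, at 0.56 for Tgm5, -0.97 for Tgm3, -0.64 for Tgm2 and -1.44 for Padi2. The other 6 members, among them Tchh and Padi3, gave adjusted p-values of 0.25 to 0.95.

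Within a single genotype the older and younger mice differed in fewer members. Within cKO, 1 of 10 members passed, against 9.99% of all genes, and it was a higher one, as 5.39% of all genes were. This was Tgm5, higher by 0.89 ± 0.18 in older cKO skin (SE, adjusted p = 0.021). Its call was lost without cKO mouse 3 (0.85, adjusted p = 0.078) and without cKO mouse 4 (0.91, adjusted p = 0.063), and it held without cKO mouse 5 (0.68, adjusted p = 0.035). Tgm3 missed the threshold narrowly, at -1.54 ± 0.44 (SE, adjusted p = 0.052). It passed without cKO mouse 2 (-1.87, adjusted p = 0.049), without cKO mouse 5 (-0.90, adjusted p = 0.049) or without cKO mouse 6 (-1.85, adjusted p = 0.03). Tgm2 stood at -0.79 ± 0.24 (SE, adjusted p = 0.061) and passed without WT mouse 5 (adjusted p = 0.047). Within WT, 0 of 10 members passed, against 0.84% of all genes, and 4 had an unadjusted p under 0.05 in limma, as 18.5% of all genes did. In these 4 the differences were 0.43 for Tgm5, -1.04 for Tgm3, -0.60 for Tgm2 and -1.50 for Padi2, with adjusted p-values of 0.15 to 0.24. Without cKO mouse 5, whose spread enters the shared error, Tgm3 passed within WT as well (-1.04, adjusted p = 0.031). The test of whether the older-minus-younger difference varied with genotype passed in no member.

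**Figure D3:**
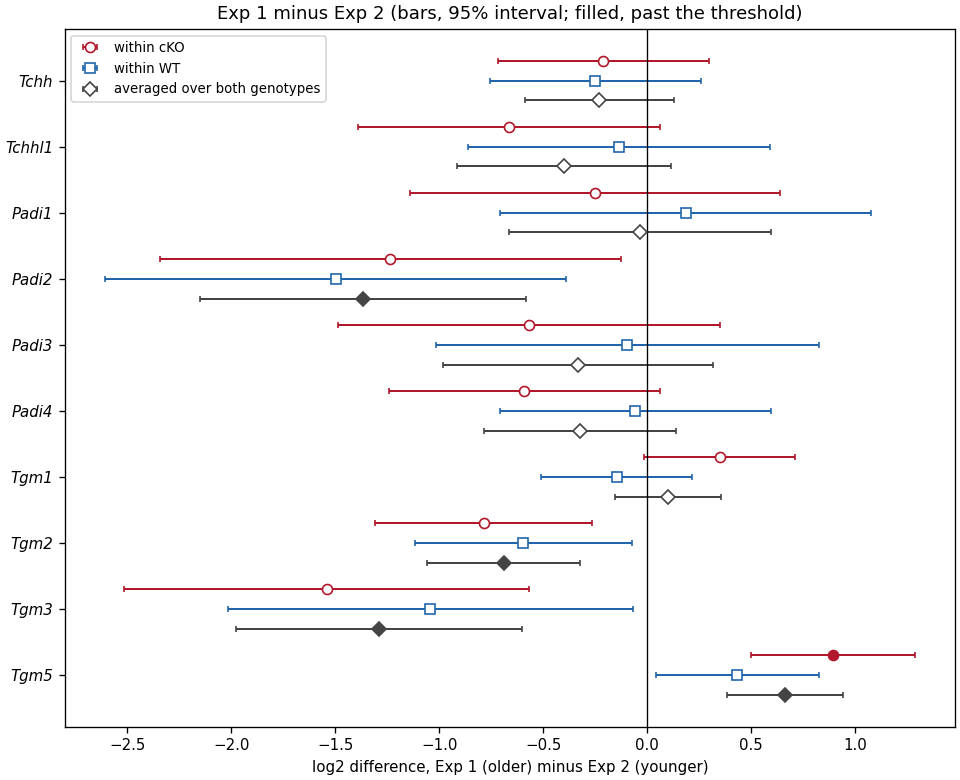
Log2 difference of Exp 1 (older) minus Exp 2 (younger) for each gene within cKO, within WT and averaged over both genotypes; bars are 95% intervals and filled symbols passed an adjusted p of 0.05. Padi2, Tgm2 and Tgm3 lie left of 0 and Tgm5 right of 0 in all 3 contrasts.

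Other genes moved along with these 4 between experiments, and in bulk skin fewer cells of a type and less RNA per cell cannot be told apart. Beside the fall of Tgm3, 8 of 14 hair shaft and cuticle genes were lower in older skin and none was higher, with a median difference of -1.36 against 0.01 over all genes. Krt84, a keratin of this list, fell by 1.54 and Krt32, a cuticle keratin, by 1.97 (adjusted p = 0.0052 and 0.03). The mean level of this list ran from 3.02 to 5.84 in older cKO, from 4.96 to 5.81 in older WT, from 6.22 to 6.56 in younger cKO and from 6.26 to 6.54 in younger WT skin. With all mice, 20.2% of all genes passed in this contrast. Without cKO mouse 5, whose spread enters the shared error of all genes, 14 of 14 were lower, with a median of -0.96. Counts with and without this mouse, here and below, rest on different errors, and the share of all genes without it is not given. A change between them cannot be read as particular to a list. Of 8 inner root sheath keratins, 1 passed with all mice, Krt74, which was higher by 1.44 (adjusted p = 0.042). The other 7 had negative differences, and the median of the list was -0.36. Leaving out cKO mouse 5 gave 1 higher, 1 lower and a median of -0.10.

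Beside the rise of Tgm5, 5 of 7 keratinocyte markers were higher and none lower in older skin, where 10.7% of all genes were higher. Among the 5 were Krt10 and Krt14, the keratins of the differentiating and the basal epidermis, at 0.91 and 0.81. Without cKO mouse 5 the count was 4 of 7. The mean level of these markers ran from 5.63 to 6.80 in older cKO, from 5.62 to 5.98 in older WT, from 5.14 to 5.45 in younger cKO and from 5.24 to 5.57 in younger WT skin. Whether more or fewer keratinocytes, hair shaft cells or muscle had a part in the members' differences was not tested.

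Some substrates of the enzymes were also higher in older skin. Of 18 measured cornified envelope substrates 5 were higher and 1 lower in older skin, with a median difference of 0.36. The counts of substrates were 7 and 3 without cKO mouse 5, with a median of 0.32. With all mice 10.7% of all genes were higher and 9.46% lower in this contrast. Counts of 1 or 2 in the lists of 4, 5 and 8 genes below do not clearly stand apart from these shares. Those higher with all mice were Lor, the main envelope protein loricrin (0.50 ± 0.13), Lce1c (0.90 ± 0.27), Lce1d (1.18 ± 0.33), Sprr2d (3.07 ± 0.74) and Csta1 (0.79 ± 0.17, SE). Ivl, the envelope scaffold involucrin, fell by 0.41. Flg2 and Hrnr, S100 fused-type relatives of trichohyalin that are made in the upper epidermis, were 2 of 4 that rose, by 1.01 and 1.54. Of the lipid envelope enzymes, Aloxe3 and Nipal4 rose, by 0.78 and 0.52, which made 2 of 8, and 4 of 8 were higher without cKO mouse 5. Cst6, the cystatin that inhibits legumain, rose by 0.35 while Lgmn, legumain itself, fell by 0.37, and Ctsl and Ctsd, the cathepsins of the same list, did not pass. None of these 4 was higher and 1 was lower without cKO mouse 5. Among 5 further transglutaminase relatives measured, Tgm4, the prostate-type enzyme, fell by 1.54 and F13a1, the coagulation factor subunit of macrophages and platelets, by 1.06.

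Padi2 and Tgm2 had their highest values in mice whose samples held much skeletal muscle RNA. These were all younger mice of Exp 2, where both genes were higher, so muscle level goes largely with experiment and age. All 15 skeletal muscle markers were lower in older skin, with a median difference of -6.07. Their mean level was -2.85, 0.63 and 0.45 in cKO mice 2, 5 and 6 and -2.79, -3.71 and -3.79 in WT mice of Exp 1. In Exp 2 it was 5.84, 4.62 and 5.00 in cKO mice 1, 3 and 4 and 4.78, -0.94 and 5.69 in WT mice 4, 5 and 6. Summed over the markers on a linear scale, this was 5.11 to 71.0 in older cKO, 2.92 to 5.25 in older WT, 1015 to 2064 in younger cKO and 19.4 to 2055 in younger WT skin. Mylpf, a fast muscle myosin light chain, was above background on 5 of the 12 arrays. WT mouse 5, the younger mouse with little muscle RNA, had the lowest Padi2 and the lowest Tgm2 of the younger WT mice. cKO mouse 3 had much muscle RNA and a low Padi2. Without WT mouse 5 the differences between ages averaged over the genotypes were -1.60 for Padi2 (adjusted p = 0.01) and -0.79 for Tgm2 (adjusted p = 0.011). Between genotypes, 15 of 15 muscle markers were higher in cKO on average, with a median of 2.38, and none passed the test. Beside the fall of Tgm2, 7 of 9 macrophage markers and 2 of 10 endothelial markers were lower in older skin and none was higher. The counts were 6 and 1 without cKO mouse 5. Of 8 fibroblast markers 2 were lower with and without that mouse, and of 8 fat cell markers 2 were lower with it and 3 without it. With all mice 9.46% of all genes were lower in this contrast. Counts of 2 in lists of 8 or 10 do not clearly stand apart from that share. The mean level of the macrophage markers ran from -0.15 to 0.39 in older cKO and from 0.17 to 0.79 in older WT, against 1.07 to 1.49 in younger cKO and 1.18 to 1.31 in younger WT skin.

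**Figure D4:**
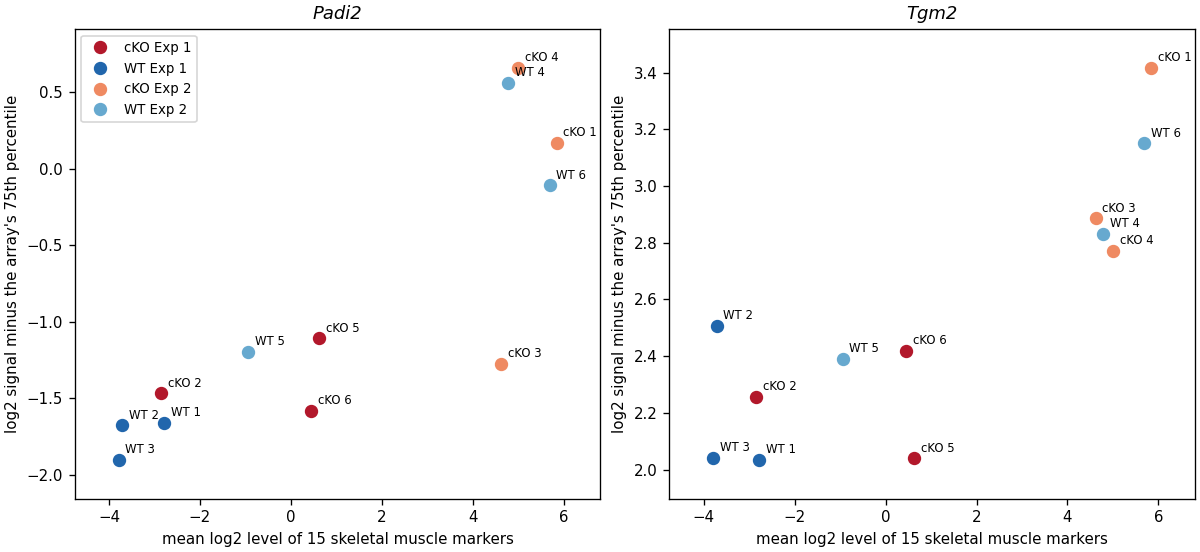
Log2 signal of Padi2 and Tgm2 (vertical axes) against the mean log2 level of 15 skeletal muscle markers in each of the 12 mice. The 5 younger mice with a marker mean of 4.62 or more hold the 4 highest Padi2 values and the 5 highest Tgm2 values, while cKO mouse 3 lies low in Padi2.

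The low values of cKO mouse 5 were shared by 6 of the 10 members and by hair genes, as a description of 1 mouse with no test. Against the mean of cKO mice 2 and 6, it was lower by 0.81 in Tchh, 1.40 in Tchhl1, 1.77 in Padi1, 1.85 in Padi3, 1.30 in Padi4 and 1.92 in Tgm3 on the log2 scale. The gap on the second probe was -1.63 for Padi4 and -0.77 for Tgm3. In each of these 6 genes its gap to its group was below that of the other 11 mice, whose lowest gap was -0.40, in Padi1. Tgm5 was 0.64 higher in this mouse, above the range of -0.40 to 0.21 in the others. Tgm1 (-0.00), Tgm2 (-0.30) and Padi2 (0.42) stayed within the range of the others. The mean level of the inner root sheath keratins was 4.88 in cKO mouse 5, against 6.34 in cKO mice 2 and 6, and that of the hair shaft genes 3.02 against 5.53. Pigment cell markers stood at 0.14 against 3.03 and fat cell markers at 0.59 against 3.14. Cornified envelope substrates were higher in this mouse, at 5.52 against 4.40, as were keratinocyte markers, at 6.80 against 5.85. The labels list this mouse at 72 weeks, the same age as cKO mouse 2, and at the same 12 days after plucking.

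**Figure D5:**
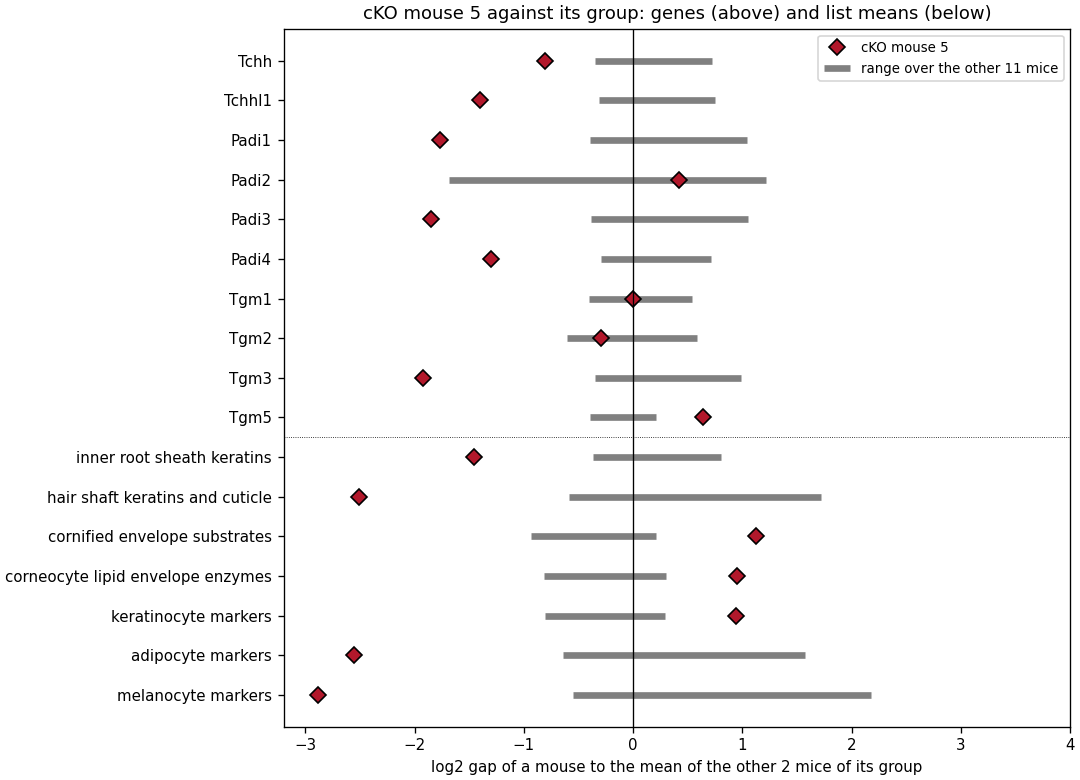
Gap of cKO mouse 5 to the mean of the other 2 mice of its group (diamonds, log2), for the 10 genes and for the mean level of 7 gene lists; grey lines span the same gap over the other 11 mice, of which the high end includes cKO mice 2 and 6 set against a mean that holds mouse 5. The mouse is low in 6 of the genes and in the hair, fat and pigment lists, and high in Tgm5 and the epidermal lists.

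Correlations from mouse to mouse within groups were computed for each pair of members. Over 45 pairs of members, 0 passed an exact permutation test within groups after Benjamini-Hochberg adjustment. The smallest adjusted p was 0.14, for Tchh and Padi3 (Pearson r = 0.89, raw p = 0.0031 two-sided, Spearman rho = 0.87, n = 12 mice). Without the 2 mice farthest from the median of Tchh, cKO mice 5 and 4, r was 0.64, and without cKO mouse 5 alone it was 0.72. The highest correlation, that of Padi4 and Tgm3, was 0.95 (rho = 0.83, adjusted p = 0.35) and was 0.60 without cKO mouse 5 and 0.48 without the 2 farthest mice, so it rests on them. Tchhl1 and Padi3 correlated at 0.91 (rho = 0.71, adjusted p = 0.35), at 0.31 without cKO mouse 5 and at -0.03 without the 2 farthest mice. The sign turned without cKO mouse 5 in several pairs and was kept in the pairs above. For Padi3 and Tgm3 the correlation was 0.81 with that mouse and -0.56 without it. The values were 0.57 and -0.73 for Tchh and Tgm3, and 0.86 and -0.50 for Padi3 and Padi4. For Padi3 and Tgm5 they were -0.72 and 0.59.

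For 8 members, all but Tchhl1 and Padi4, the genes most like each across mice were named by the Pearson r of deviations from the 4 group means over 12 mice, among 16166 genes, as a description with no test. For Padi3 they were Ggt1 (0.99), Krt25, an inner root sheath keratin (0.99), and Wdr31 (0.98), and without cKO mouse 5 these were 0.90, 0.90 and 0.83. Without that mouse they ranked only 114, 131 and 513 in likeness to Padi3 among all genes compared. For the other members the farthest rank without it was 170, that of Zfp580 for Padi1. For Tgm3 they were Enc1 (0.99), Rbmx (0.98) and Krt32 (0.97), and without that mouse 0.94, 0.86 and 0.82. For Tchh they were Cpm, Mical3 and Pla2g4c, each at 0.96, and 0.93, 0.90 and 0.89 without the mouse. Padi1 was nearest to Smtn (0.98), Cyp2s1 (0.97) and Zfp580 (0.97), at 0.90, 0.92 and 0.79 without that mouse. Tgm5 went with Cd5 (0.98), Cidea (0.98) and Acsl5 (0.98), which stood at 0.93, 0.91 and 0.91 without cKO mouse 5. Padi2 was nearest to Mir1a-1hg (0.93), the host gene of a muscle microRNA, Dok7 (0.88), an adaptor of the nerve-muscle synapse, and Capn13 (0.86), and these hardly depended on mouse 5 (0.92, 0.89 and 0.86). Tgm2 was nearest to Sulf1 (0.94), Dennd4b (0.93) and Lrrc39 (0.93), and Tgm1 to Rps15 (0.95), Zmiz2 (0.94) and Rnf8 (0.93). All 6 of these values were between 0.94 and 0.96 without that mouse.

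Between genotypes, none of the substrates and partners of these enzymes passed the test. Of all genes, 0.42% passed in the average, and counts of 0 in lists this short do not stand apart from that share. In cKO against WT averaged over both experiments, 0 of 8 inner root sheath keratins, 0 of 14 hair shaft genes, 0 of 18 cornified envelope substrates, 0 of 8 lipid envelope enzymes, 0 of 4 trichohyalin relatives, 0 of 4 proteases and inhibitors and 0 of 5 family relatives passed. All 8 inner root sheath keratins had negative differences, with a median of -0.14 against -0.04 over all genes, and without cKO mouse 5 their median was 0.05. The smallest p in this list was that of Krt27, at -0.25 ± 0.21 (adjusted p = 0.65), followed by Krt25 at -0.20 ± 0.22 (SE, adjusted p = 0.74). Hair shaft genes had a median of -0.41, and of -0.02 without cKO mouse 5. Krt33b stood at -0.86 ± 0.44 (SE, adjusted p = 0.47). Rptn, the trichohyalin relative repetin, had the largest positive difference of its list at 0.92 ± 0.23 (SE, adjusted p = 0.14). Ivl stood at 0.33 ± 0.11 (adjusted p = 0.30) and Aloxe3 at 0.49 ± 0.23 (SE, adjusted p = 0.43), with list medians of 0.11 and 0.14. Without cKO mouse 5 those medians were -0.02 and 0.03.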

How the data were processed

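Total RNA of each mouse was hybridised to 1 one-colour array (Cy3, T7 amplification), per the labels. Per the file headers, Feature Extraction 11.5.1.1 wrote a processed (background-subtracted), a median and a background intensity for each spot, and other 0 or 1 flags. The deposited value table holds log2 values. The submitters' processing notes name limma, and no step of normalization was stated. Its 12 columns all belong to mice of the study. The column of cKO mouse 1 matched the array of WT mouse 6 best, so the table served as an alternative only.

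Spots flagged as outliers were dropped, log2 processed signals were averaged per probe, and each array's 75th percentile was then taken off. Of 55681 probes, 27509 were named through RefSeq transcripts of GRCm38. A probe was kept if well above background on 3 of 12 arrays, and the brightest kept probe stood for a gene. Missing values numbered 24 among the 16191 genes tested, none in a member. The file names of the arrays give 3 slides.

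R 4.3.3 and limma 3.58.1 fitted the 4 groups (residual degrees of freedom 8, prior 2.3), two-sided, with Benjamini-Hochberg adjustment over all genes at 0.05. The p-values measure the spread between these mice, and the number of arrays limits the precision. Mouse numbers do not pair the samples: they cross the experiments in 4 of 6 pairs.

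The members, lists and tests were chosen with earlier results of these data known. Named were all members, Sox4, list genes past the threshold or among the 4 smallest p-values between genotypes, and the 3 genes most like a member. Krt83, Krt85, Flg, Sprr3, F13b and Padi6 were not tested, and Pi3 was left out because its name led to another gene. Alternatives covered background correction, scaling, filter, probe choice, variance prior, slide, array-name tag, the value table and each mouse in turn. Scan time coincided with slide and was not run apart.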

Additional observations from a re-analysis of the deposited data

How the results depend on the processing

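Across 1858 recomputed member differences, 1811 kept their side of the threshold, 15 lost a call, 32 gained one and 0 calls changed direction, while 133 uncalled differences changed sign. The counts of called members between genotypes stayed at 0 except within slide 2, where 2 passed on average (Padi1 and Tgm3), 4 in Exp 1 (Padi1, Padi3, Padi4 and Tgm3) and 2 for the difference between experiments. That fit has 1 residual degree of freedom, and cKO mouse 5 is its only older cKO mouse. No conclusion is drawn from the counts within slide 2, here or below. Within cKO, the count of members that differed between ages was 3 with normexp and quantile, 2 with a stricter filter or the mean of the probes, 3 with a trended prior, 2 with slide as a random block, 8 within slide 2, and 0 within slide 1, with slide as a fixed block (which drops cKO mouse 3), with the array-name tag or in the authors' deposited table. It ranged from 0 to 2 when each mouse was left out. Within WT it was 1 within slide 2 and 0 to 1 when each mouse was left out. Averaged over genotypes it was 0 within slide 1, which has 2 residual degrees of freedom, 8 within slide 2 and 1 in the authors' deposited table. In that table the column of cKO mouse 1 matched the array of WT mouse 6 best. With this column left out, the averaged calls of Tgm5, Tgm3, Tgm2 and Padi2 and the Tgm5 call within cKO were kept. The share of all genes that passed under each of these settings is not given. A change in the count of members therefore cannot be read as particular to them. Within slide 1 the differences averaged over genotypes were 0.43 for Tgm5, -0.90 for Tgm3, -0.60 for Tgm2 and -1.14 for Padi2. Of the 45 correlations, 13 changed sign without the 2 farthest mice. With the mouse number as a replicate block the genotype count stayed at 0. The correlations of same-numbered mice ran from -0.26 to 0.07, with no test, and cannot decide on pairing. The numbers were not used as pairs because they cross the experiments in 4 of 6 pairs.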
